A study of Mus musculus with 3 samples.

Results

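This report describes 49 genes of the basic helix-loop-helix (bHLH) family and its Id inhibitors in undifferentiated F9 cells. F9 is an embryonal carcinoma line of the mouse, known for forming endoderm under induction. The genes were listed by name, and all 98 probe sets whose platform annotation gives one of these symbols alone were taken, out of 34945 probe sets naming a single gene and 18193 genes in all. The single group holds 3 Affymetrix mouse genome arrays of total RNA, labelled replicates 1, 2 and 3. No treatment, genotype or other cell state was compared. Cells had been grown on 0.2% gelatin in DMEM with 10% fetal calf serum to about 80% confluence. Separate cultures are not stated for the 3 RNA samples, and p-values therefore reflect the variation among these arrays alone, which could be technical.

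A bHLH protein binds DNA as a dimer: the helix-loop-helix joins the partners, and the basic stretch before it contacts a short motif called the E-box. Broadly expressed E proteins pair with factors that specify nerve, muscle, mesoderm or blood, whereas Id proteins have the helix-loop-helix but no basic stretch and hold E proteins in dimers that cannot bind DNA. Other branches carry a leucine zipper or a PAS domain and serve in growth, hypoxia sensing and the circadian clock. In pluripotent cells, Id genes are known as targets of BMP signalling.

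Signals are linear intensities. A gene was called above background where its log2 signal exceeded a threshold measured on each array, at signals of 44.6, 46.1 and 43.2 on replicates 1, 2 and 3. That threshold is the 95th percentile of 127 probe sets for 114 olfactory, vomeronasal and taste receptor and hair keratin-associated genes. The call used limma's one-sided test with a Benjamini-Hochberg adjusted p under 0.05 over all probe sets. Where a gene had several probe sets, the one with the highest mean signal stood for it. Values in brackets after ± are SDs (n = 3), and a log2 margin is the mean log2 signal minus the log2 threshold. Signals of different probe sets depend on the probes themselves, so no order between genes is read from them.

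Log2 signals correlated at 0.917 to 0.920 between arrays, across probe sets. Median signals lay between 36.0 and 37.8, and the mean after trimming 2% at each end was 250.002 on each array. The equal trimmed mean follows from the scaling of each array and does not measure agreement between them. Of the embryonal carcinoma markers, 6 of 6 were above background, among them Pou5f1 (6809 ± 279) and Sox2 (4794 ± 208). The marker counts by limma adjusted p stand beside 51.1% of all named genes. None of 7 endoderm, 6 skeletal muscle or 5 blood markers passed by limma, although Gata6 (57.5 ± 3.95), Sox17 (69.7 ± 18.6) and Acta1 (64.8 ± 17.1) exceeded the threshold on all 3 arrays, with limma adjusted p of 0.0509, 0.0735 and 0.0769. At an unadjusted p under 0.05 the counts were 2 endoderm, 1 skeletal muscle and 0 blood markers. Median log2 margins were 0.16 over the endoderm, -0.97 over the skeletal muscle and -2.12 over the blood markers, beside 0.72 over all named genes. Thy1 was the 1 of 7 fibroblast markers that passed (105 ± 17.3), and Syn1 (81.0 ± 26.1) and Syt1 (70.8 ± 10.5) were the 2 of 7 neuronal ones. Syt1 passed on 1 of its 4 probe sets.

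Since these proteins act through the E-box, the 250 bases before the start site are shown for the Id and E protein genes with an entry in the RefSeq promoter table (GRCm38.p6), for Neurog3, the called lineage factor with an entry, and for Mesp1 and Myog, lineage factors that were not called. They are printed in the direction of the gene, and capitals mark each E-box, CANNTG, a motif that reads the same on both strands.
Id2 (chr12:25096093-25096342, minus strand): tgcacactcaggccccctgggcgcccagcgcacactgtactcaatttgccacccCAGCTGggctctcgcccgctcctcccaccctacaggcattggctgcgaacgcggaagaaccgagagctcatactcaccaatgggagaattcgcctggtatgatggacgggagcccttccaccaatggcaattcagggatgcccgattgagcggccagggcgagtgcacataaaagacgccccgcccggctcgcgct
Id3 (chr4:136143572-136143821, plus strand): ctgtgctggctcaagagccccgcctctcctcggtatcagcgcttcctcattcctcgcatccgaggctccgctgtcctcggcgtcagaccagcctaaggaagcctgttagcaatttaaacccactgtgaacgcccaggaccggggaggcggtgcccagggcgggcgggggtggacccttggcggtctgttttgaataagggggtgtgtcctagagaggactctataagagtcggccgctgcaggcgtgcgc
Id4 (chr13:48260866-48261115, plus strand): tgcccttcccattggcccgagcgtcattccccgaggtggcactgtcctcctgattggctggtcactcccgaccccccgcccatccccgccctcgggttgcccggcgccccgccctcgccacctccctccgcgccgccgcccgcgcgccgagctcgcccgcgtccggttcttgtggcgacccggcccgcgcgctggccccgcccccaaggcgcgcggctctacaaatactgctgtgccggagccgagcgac
Tcf3 (chr10:80433636-80433885, minus strand): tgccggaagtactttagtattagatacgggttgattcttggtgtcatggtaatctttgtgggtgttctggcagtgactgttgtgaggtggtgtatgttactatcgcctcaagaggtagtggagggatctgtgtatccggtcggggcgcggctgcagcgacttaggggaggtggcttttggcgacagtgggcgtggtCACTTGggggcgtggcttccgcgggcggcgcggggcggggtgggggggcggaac
Tcf12 (chr9:72111820-72112069, minus strand): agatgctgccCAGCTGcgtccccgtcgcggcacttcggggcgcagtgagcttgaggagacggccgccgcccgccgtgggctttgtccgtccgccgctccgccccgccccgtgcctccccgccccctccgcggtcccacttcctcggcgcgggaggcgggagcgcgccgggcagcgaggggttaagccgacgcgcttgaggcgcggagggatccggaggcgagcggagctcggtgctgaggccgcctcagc
Neurog3 (chr10:62132840-62133089, plus strand): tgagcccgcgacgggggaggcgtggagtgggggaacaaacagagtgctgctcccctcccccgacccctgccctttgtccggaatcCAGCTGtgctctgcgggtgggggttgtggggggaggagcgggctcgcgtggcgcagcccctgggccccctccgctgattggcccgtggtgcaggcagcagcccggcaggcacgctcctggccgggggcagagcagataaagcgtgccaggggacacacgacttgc
Mesp1 (chr7:79793591-79793840, minus strand): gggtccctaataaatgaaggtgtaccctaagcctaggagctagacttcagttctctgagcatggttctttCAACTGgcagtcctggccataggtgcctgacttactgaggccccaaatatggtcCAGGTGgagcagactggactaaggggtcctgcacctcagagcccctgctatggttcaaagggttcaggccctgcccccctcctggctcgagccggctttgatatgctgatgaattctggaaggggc
Myog (chr1:134289754-134290003, plus strand): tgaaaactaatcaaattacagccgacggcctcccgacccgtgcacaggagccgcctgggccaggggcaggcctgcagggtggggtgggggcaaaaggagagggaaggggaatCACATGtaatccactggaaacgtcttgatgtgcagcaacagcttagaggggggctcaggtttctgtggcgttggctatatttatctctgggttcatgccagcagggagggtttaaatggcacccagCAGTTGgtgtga
The entries were found for 38 of 49 genes. No entry was found for Id1, Tcf4, Tcf15, Olig1, Hand1, Myod1, Myf6, Usf2, Epas1, Ahr or Bhlhe40.

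All 4 Id genes were above background, beside 51.1% of all named genes. Id1 gave signals of 3777, 3757 and 3639 on replicates 1, 2 and 3. The 3 arrays lay close together and far above their thresholds, at a log2 margin of 6.38 (limma adjusted p = 0.000109). Id1 is the Id gene most often used as a readout of BMP signalling. Id2 gave 1183, 1072 and 1371, a margin of 4.75 (adjusted p by limma 0.000148). Id3, which often overlaps with Id1 in embryonic expression, gave 938, 867 and 896, at a margin of 4.33 (limma adjusted p = 0.000121). Id4, known for its part in neural progenitors and spermatogonial stem cells, gave 253, 223 and 239. Its margin was 2.42 (limma adjusted p = 0.000375), and each array was over its threshold. As RNA came from a whole culture, a low signal does not separate few expressing cells from little RNA in each cell.

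The Id probe sets did not all agree. Of 8 Id probe sets 6 were called, beside 38.2% of all probe sets. A second Id2 probe set gave 684, 668 and 608. The remaining Id2 probe set gave 19.4, 19.8 and 41.4, under the threshold on each array. Of the Id4 probe sets, one gave 145, 116 and 132 and passed. The other gave 60.4, 70.9 and 108. All 3 of its values were over the threshold, but its margin of 0.80 had a limma adjusted p of 0.0514. Id1 and Id3 have a single probe set each.

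In the list of BMP and Smad genes that act upstream of Id, 8 of 13 were above background. That share of 61.5% stands beside 51.1% of all named genes. It is near the 62.5% of all named genes with 2 or 3 probe sets, and many of the 13 have several. Bmp4, a ligand, gave a mean signal of 2410 ± 85.0 and its type I receptor gene Bmpr1a 818 ± 75.9, whereas the ligand genes Bmp2 (15.8 ± 7.84) and Bmp7 (30.3 ± 20.8) and the receptor gene Bmpr1b (27.5 ± 10.9) were not above background. The inhibitory Smad6 (36.9 ± 3.02) and the receptor-activated Smad9 (7.31 ± 4.24) did not pass either. Other genes of the same classes did, named here after their values were seen: the inhibitory Smad7 (645 ± 46.0) and the receptor-activated Smad1 (306 ± 29.5) and Smad5 (234 ± 30.3).

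All 3 E protein genes were above background, beside 51.1% of all named genes. Tcf3 encodes the E2A proteins and is not the HMG-box gene now called Tcf7l1, which older texts also call Tcf3. It gave 457, 455 and 331 on the 3 arrays, with replicate 3 the lowest, at a margin of 3.20 (limma adjusted p = 0.000321). Tcf4, the gene of a second E protein and not the Wnt effector Tcf7l2, gave 533, 445 and 532, at a margin of 3.49 (limma adjusted p = 0.000225). Tcf12 encodes HEB and gave 737, 787 and 900.2, at a margin of 4.17 (limma adjusted p = 0.000157). On these probe sets no array came close to the threshold.

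Of 14 E protein probe sets 9 were called, beside 38.2% of all probe sets. Tcf4 passed on 5 of 6 probe sets, with means from 150.0 to 503, and the last one stood at 29.0 ± 9.16. Tcf3 passed on 2 of 3, and its last one, of the _x_at class that may cross-hybridise, gave 69.5, 62.4 and 44.2 at a margin of 0.37 (limma adjusted p = 0.146). Tcf12 passed on 2 of 5, with means of 808 ± 83.6 and 434 ± 19.2. Its remaining probe sets gave means of 39.5, 22.1 and 18.3, all with a negative margin, though the first of these exceeded the threshold on 2 arrays. Under the rule that all probe sets of a gene must pass, no E protein gene counted (0 of 3 by limma, and 0 at an unadjusted p under 0.05), beside 31.3% of all named genes. With 3 to 6 probe sets each, these genes have more chances to fail that rule than genes with 1.

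**Figure D1:**
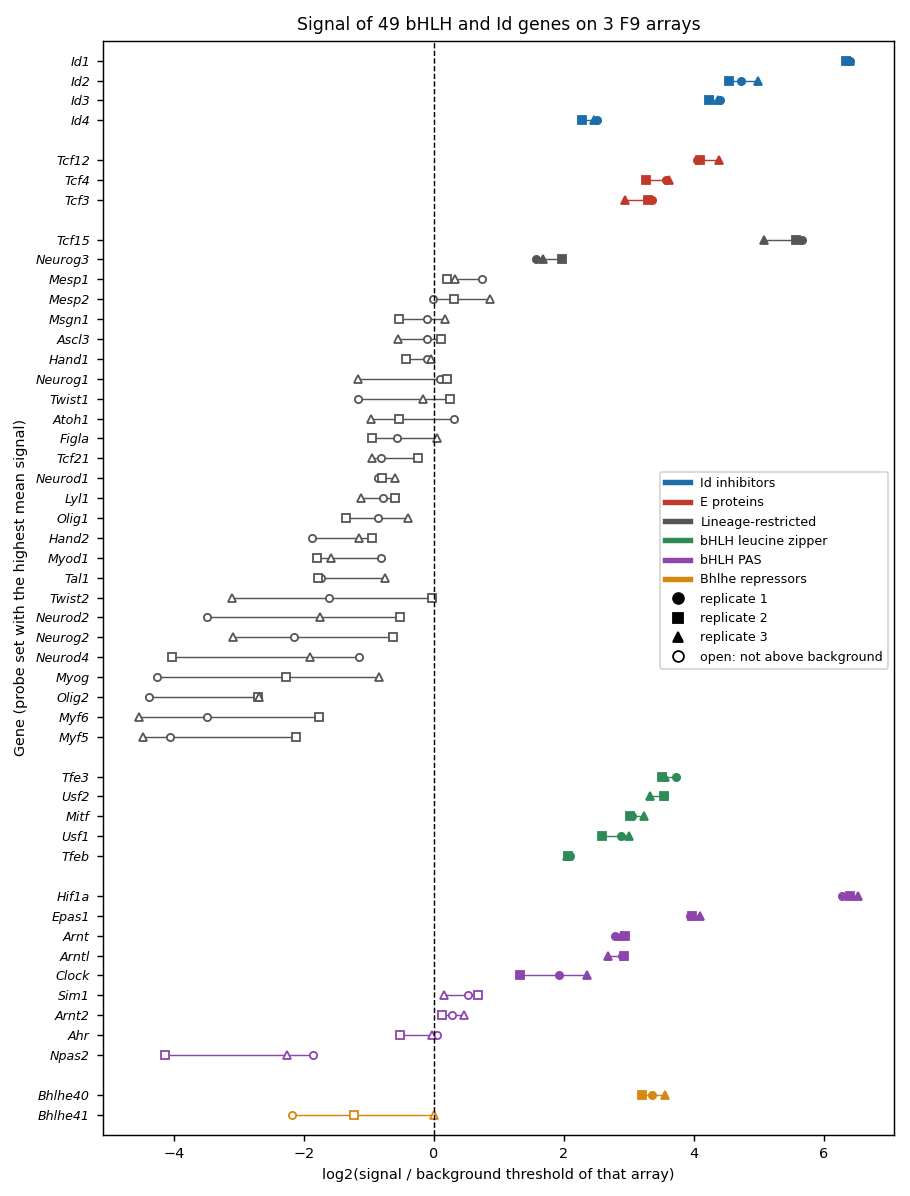
Log2 signal over the background threshold of each array for the 49 genes, 1 row per gene, with replicate 1 as circles, replicate 2 as squares and replicate 3 as triangles, a line joining the lowest and highest array, and open symbols for genes not above background. The Id, E protein and leucine zipper rows lie to the right of the dashed threshold throughout, while 24 of 26 lineage-restricted rows are open.

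Lineage-restricted factors were mostly not above background: 2 of 26 passed (7.69%, beside 51.1% of all named genes) and 24 did not. The exceptions were Tcf15 and Neurog3. Tcf15 (paraxis), a factor of somite formation that is also known from pluripotent cells on the way to differentiation, gave 2252, 2195 and 1463 from a single probe set. Replicate 3 was the lowest, and the margin was 5.44 (limma adjusted p = 0.000160). It kept its call under 12 alternatives, with margins from 5.01 to 5.76. Neurog3, the factor of pancreatic endocrine progenitors, gave 133, 180.3 and 138 on the probe set that passed, at a margin of 1.74 (limma adjusted p = 0.00135). Its other probe set gave 39.5, 70.9 and 41.0, over the threshold on replicate 2 only, at a margin of 0.12 (limma adjusted p = 0.710), so the Neurog3 call rests on 1 of 2 probe sets.

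Among the 10 neural, ectodermal and endocrine factors, Neurog3 alone was called, and 6 genes lay under the threshold on all 3 arrays. Neurog1, which specifies sensory neurons, gave 47.6, 53.2 and 19.3, over the threshold on 2 arrays and well under it on replicate 3. Neurog2, its relative in cortical and sensory neurogenesis, gave 10.1, 29.8 and 5.08, all under. The neuronal differentiation factors Neurod1 (26.6 ± 1.96), Neurod2 (16.3 ± 14.4) and Neurod4 (11.5 ± 8.68) stayed under the threshold on each array and on each of their 8 probe sets. Atoh1, needed for inner ear hair cells and cerebellar granule cells, gave 55.2, 31.6 and 22.0, with replicate 1 alone over the threshold. Ascl3 (40.2 ± 10.2), a factor of salivary gland progenitors, was over it on 1 array. The oligodendrocyte factors Olig1 (25.2 ± 7.39) and Olig2 (5.30 ± 2.73) were under it on all.

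Of 9 mesoderm and mesenchyme factors, Tcf15 was the one called. Mesp1, the earliest marker of cardiac mesoderm, gave 74.8, 53.0 and 54.4, each over the threshold. Its margin of 0.43 did not pass (limma adjusted p = 0.0975). The adjusted p was 0.0277 with the threshold at the 90th percentile and 0.0399 with dim probe sets left out, in a range up to 0.999999 over 12 alternatives. Mesp2, which sets somite boundaries, gave 44.3, 57.03 and 78.3, with replicate 1 just under the threshold, at a margin of 0.39 (limma adjusted p = 0.219). Msgn1, a factor of the presomitic mesoderm, gave 41.5, 32.0 and 48.5, over the threshold on replicate 3 only.

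The other mesodermal members had negative margins. Hand1, of trophoblast giant cells and the heart, gave 41.3, 34.4 and 42.0, and Hand2 gave 12.2, 23.8 and 19.4, so neither exceeded it on any array. Twist1, a factor of cranial mesenchyme, gave 19.9, 54.9 and 38.6, with replicate 2 alone over. Twist2, active in the dermis, gave 14.6, 45.2 and 4.99. Tcf21, known from the epicardium and kidney, gave 25.4, 38.8 and 22.2. All Twist2 and Tcf21 values were under the threshold.

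Neither blood factor was called. Tal1, the factor that starts blood formation, gave 13.5, 13.4 and 25.8, and its relative Lyl1 gave 25.9, 30.6 and 19.9. Of the 8 listed partners of the Tal1 complex 2 passed, beside 51.1% of all named genes. These were Lmo4 (462 ± 57.8) and the broadly expressed adaptor Ldb1 (597 ± 92.2). Lmo1 (47.0 ± 10.99) and Lmo2 (55.0 ± 12.5), the partner through which Tal1 joins Ldb1 in blood cells, did not pass.

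The 4 muscle regulators were all under the threshold on each array. Myod1 gave 25.3, 13.3 and 14.5. Myf5 gave 2.67, 10.6 and 1.95, and Myf6 gave 3.98, 13.6 and 1.85. Myog gave 2.32, 9.51 and 24.2, the widest spread between arrays among the 49 genes on their highest probe sets, 3.38 log2 units. At signals this low the arrays do not repeat one another, and only the position under the threshold is read. Figla, the oocyte factor of the zona pellucida genes, gave 30.2, 23.9 and 44.7, over the threshold on replicate 3 only. For the blood, muscle and oocyte factors, limma called 0 genes, 0 had an unadjusted p under 0.05, and 0 passed with a prior variance that follows the mean.

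**Figure D2:**
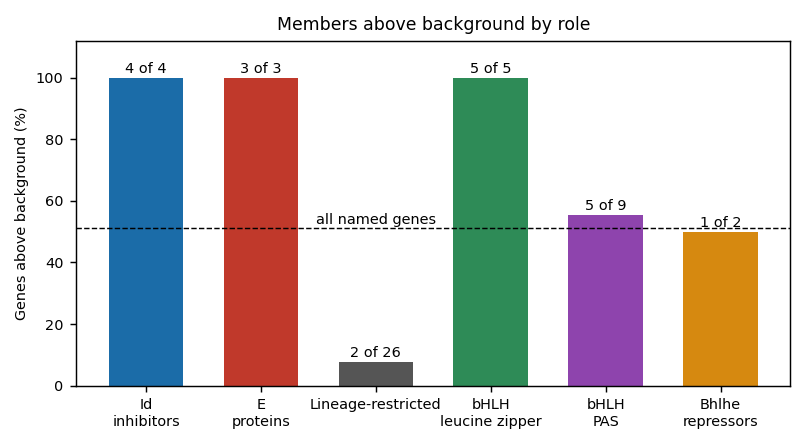
Share of genes above background in each role, with the count over each bar and the dashed line at the 51.1% of all 18079 named genes outside the background families. The bars of the Id, E protein and leucine zipper genes reach 100%, and the lineage-restricted bar stands at 7.69%.

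The share of genes above background ran from 7.69% to 100% across the roles. In all, 20 of 49 genes (40.8%) were called, beside 51.1% of all named genes. The median log2 margin was 4.54 over the Id genes, 3.49 over the E proteins and -0.79 over the lineage-restricted factors, beside 0.72 over all named genes. These medians describe the probe sets with the highest mean signal and set no order between roles, since probes differ and the roles differ in probe sets per gene. Without a test, 23 of 49 genes exceeded the threshold on all 3 arrays, beside 53.8% of named genes, and 17 were under it on all 3, beside 36%. Of the lineage-restricted factors 16 were under it throughout.

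Genes with more probe sets have more chances to pass, and the roles differ in this. Of all named genes, 36.1% were called among those with 1 probe set, 62.5% among those with 2 or 3, and 79.6% among those with 4 or more. Of the 17 lineage-restricted factors with 1 probe set 1 was called, and of the 9 with 2 or 3 another 1. The Id genes passed in 2 of 2 cases with 1 probe set and 2 of 2 with more. No E protein has a single probe set, and 2 of the 3 have 4 or more.

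A list of lineage factors of the same family that were not among the 49 gave a like picture. Of 18 measured genes 2 were above background (11.1%), beside 51.1% of all named genes. Most of the 18 have a single probe set, and 36.1% of all named genes with 1 probe set were called. Ascl2, a trophoblast factor, stood at 35.6 ± 10.7, Atoh7, of retinal ganglion cells, at 31.6 ± 7.41, Atoh8 at 5.80 ± 0.252 and Bhlha15, of secretory cells, at 28.4 ± 24.2, none of them above background. The 2 that passed were Msc (musculin), a repressor known from muscle precursors, with 1881, 1993 and 1991, and Sohlh2, a factor of early germ cells, with 118, 84.3 and 75.7. Msc had a margin of 5.45 and Sohlh2 of 1.03, each from a single probe set (limma adjusted p = 0.000109 and 0.0126).

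All 5 leucine zipper members were above background, beside 51.1% of all named genes. Tfe3, which acts in lysosomal gene control and in the self-renewal of embryonic stem cells, gave 591, 526 and 508, and its relative Tfeb gave 191, 193 and 178. Mitf, the melanocyte member of the same subfamily, gave 371, 373 and 404. Their margins were 3.60, 2.07 and 3.10, and no array came near its threshold. The ubiquitous E-box factors Usf1 (327, 276 and 345) and Usf2 (520.0, 537 and 431) passed at margins of 2.82 and 3.47. A second Mitf probe set (43.0 ± 9.29) and the last Usf1 probe set (21.5 ± 7.26) did not pass.

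The regulators listed beside Tfe3 and Tfeb passed in 6 of 6 measured cases, beside 51.1% of all named genes. Folliculin (Flcn), which holds Tfe3 in the cytoplasm, stood at 712 ± 41.9, and its partners Fnip1 and Fnip2 at 660.3 ± 171 and 580.0 ± 102. The Rag GTPase gene Rraga stood at 1544 ± 121.

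Of 9 PAS members 5 were above background (55.6%), beside 51.1% of all named genes. None has a single probe set. Of the 6 with 2 or 3 probe sets 2 were called, beside 62.5% of all such named genes. The 3 with 4 or more were all called, beside 79.6%. Hif1a, the oxygen-regulated subunit of the hypoxia-inducible factor, gave 3456, 3914 and 3995, at a margin of 6.41 (limma adjusted p = 0.000109). Epas1 (Hif2a) gave 687, 725 and 735, and their common partner Arnt gave 309, 356 and 318. On these probe sets Hif1a, Epas1 and Arnt were thus over the threshold on each array, at margins of 4.004 for Epas1 and 2.87 for Arnt. Arnt2, the neural relative of Arnt, gave 54.2, 50.1 and 59.6. All 3 Arnt2 values were over the threshold, but the margin of 0.29 did not pass (limma adjusted p = 0.133). The adjusted p was 0.0450 with the threshold at the 90th percentile and 0.0489 with dim probe sets left out, in a range up to 0.999999 over 12 alternatives.

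Hif1a protein is chiefly controlled by oxygen-dependent breakdown, which arrays do not measure. The hydroxylase genes and Vhl of that pathway passed in 5 of 5 cases, beside 51.1% of all named genes. Most of these 5 genes have 2 or 3 probe sets, where 62.5% of all named genes were called. Egln1 stood at 245 ± 35.1, Egln2 at 791 ± 41.8, Egln3 at 247 ± 20.03 and Hif1an at 390.0 ± 51.1. Egln3 passed on 1 of 2 probe sets and Hif1an on 1 of 3. Of 9 listed HIF target genes, Egln3 again among them, 7 passed, beside the same 51.1%. Most of the 9 have several probe sets. Of all named genes 62.5% were called with 2 or 3 probe sets and 79.6% with 4 or more. The targets that passed included Vegfa (461 ± 25.1), Pdk1 (2269 ± 142), Bnip3 (1212 ± 22.2) and Ankrd37 (108 ± 25.3). Adm (26.4 ± 3.37) and Car9 (25.4 ± 10.1) did not.

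The clock pair was above background in F9 cells. Arntl (Bmal1) gave 330.1, 352 and 278, at a margin of 2.84 (limma adjusted p = 0.000268). Clock gave 169, 115 and 221, at a margin of 1.87 (limma adjusted p = 0.00632). Replicate 2 was the lowest and replicate 3 the highest for Clock, a spread of 0.94 log2 units that was the widest among the called members. Npas2, which can replace Clock, gave 12.3, 2.63 and 9.05, all under the threshold. Of 12 clock partners 8 passed (66.7%), beside 51.1% of all named genes. Most of the 12 have several probe sets, and 62.5% of all named genes with 2 or 3 were called. Per1 (140.4 ± 45.5) and Cry1 (1093 ± 70.5) were among the partners that passed. Per2 (58.1 ± 7.57), Per3 (41.3 ± 15.6), Nr1d1 (38.4 ± 18.8) and Rora (55.8 ± 2.93) did not. Per2 and Rora exceeded the threshold on all 3 arrays, with limma adjusted p of 0.0948 and 0.0663. Nr1d2, a relative of Nr1d1 named here after its value was seen, passed (467 ± 42.2) on 1 of 2 probe sets.

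The remaining PAS members were not above background. Ahr, the receptor for dioxin-like ligands, gave 46.2, 32.0 and 42.2, over the threshold on replicate 1 only. Of its listed partners and targets 2 of 5 measured genes passed, beside 51.1% of all named genes. These were Tiparp (1383 ± 41.8) and Nqo1 (346 ± 29.4), which also respond to other signals. The classical targets Cyp1a1 (25.3 ± 9.23) and Cyp1b1 (18.1 ± 12.5) and the repressor Ahrr (10.4 ± 7.69) did not. Sim1, a hypothalamic factor, gave 64.2, 73.9 and 48.4, each over the threshold, at a margin of 0.46 (limma adjusted p = 0.0752). Its adjusted p was 0.0150 with the threshold at the 90th percentile and 0.0289 with dim probe sets left out, in a range up to 0.921 over 12 alternatives.

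The repressors Bhlhe40 and Bhlhe41, which act on E-boxes of clock genes, differed in their calls. Bhlhe40 gave 455, 426 and 509, at a margin of 3.37 (limma adjusted p = 0.000225). Bhlhe41 gave 9.83, 19.7 and 43.2, with replicate 3 barely over its threshold, at a margin of -1.14. Its second probe set lay between 1.59 and 1.96 on all arrays. The difference between these genes was not tested, since their probes differ.

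Among the other leucine zipper and PAS genes of the family, 6 of 14 passed (42.9%, beside 51.1% of all named genes). These were Tfap4 (169 ± 29.6), the sterol regulators Srebf1 (577 ± 38.5) and Srebf2 (614 ± 165), the Mlx partners Mlx (694 ± 31.0) and Mlxip (239 ± 24.1), and Hif3a (138 ± 11.7), which passed on 1 of its 6 probe sets. Tfec, the fourth member of the Mitf subfamily, stood at 5.66 ± 5.03.

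**Figure D3:**
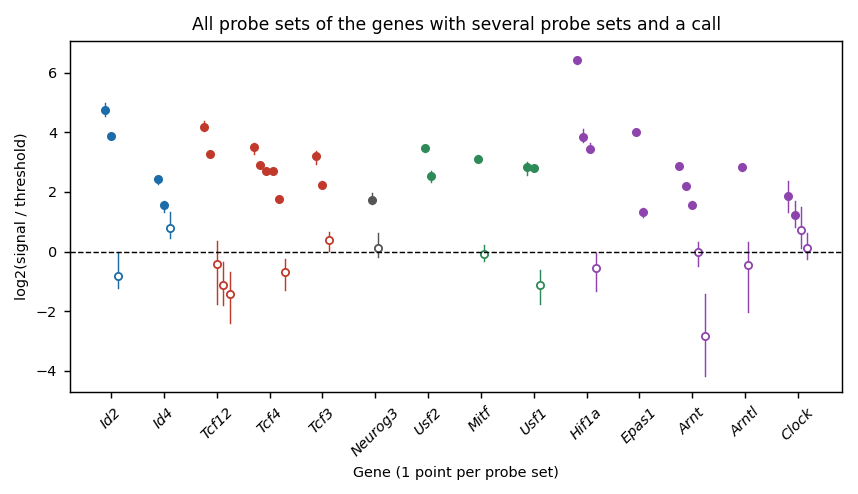
Mean log2 signal over the threshold for each probe set of the genes with several probe sets and at least 1 call, with lines from the lowest to the highest array and open circles for probe sets not above background. Usf2 and Epas1 are the genes whose probe sets were all called, and Arnt spans from 2.87 to -2.82.

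Probe sets of a single gene often disagreed. Of 27 genes with several probe sets, 2 had all of them called, 13 had none called and 12 were split. Over all 18079 genes, those with 1 probe set included, 31.3% had all their probe sets called. Hif1a showed how far probe sets of a gene can differ: its 4 means were 3788, 646, 489 and 32.1. Arnt passed on 3 of 5, with means of 327, 203 and 131, and the other two stood at 45.5 and 8.61. Clock passed on 2 of 4. The second Arntl probe set, at 10.9, 57.7 and 54.1, was over the threshold on replicates 2 and 3 and not on replicate 1. The files do not say which transcripts the failing probe sets read.

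**Figure D4:**
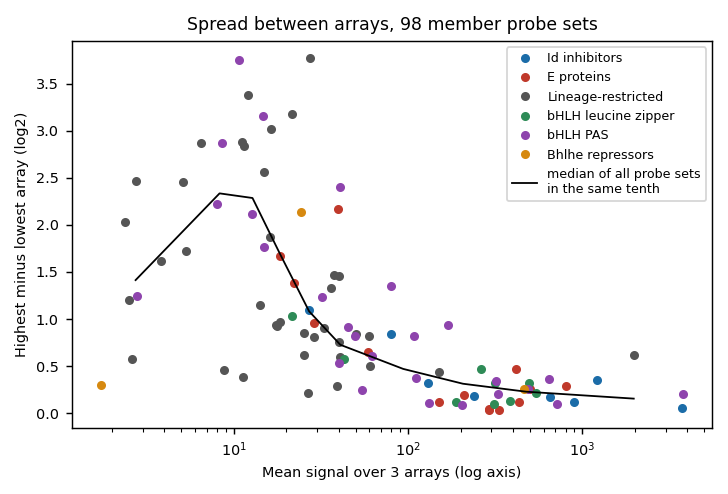
Difference between the highest and the lowest array, in log2 units, against mean signal on a log axis for the 98 probe sets, coloured by role, with the black line for the median of all probe sets of like mean signal, in 10 bins. The line falls over most of the range as signal rises, and Tcf15, near a mean of 1970, lies above the line at 0.62.

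The spread between arrays was larger for uncalled genes, whose signals were lower, and the call itself depends on this spread. The median over all probe sets differed likewise by signal, at 0.73 in the bin of Mesp1 and 0.15 in that of Id1. Over the 20 called genes the range between arrays ran from 0.054 log2 units for Id1 to 0.94 for Clock, with a median of 0.26. Over the 29 uncalled genes it ran from 0.21 for Neurod1 to 3.38 for Myog, with a median of 0.94. Of the called genes 12 had a range above the median of all probe sets in their bin of mean signal. Tcf15 had 0.62, where that median was 0.15, and Clock had 0.94 beside 0.31. For Id1 it was 0.054 beside 0.15. Replicate 3 was the lowest array for 7 of the 20 called genes and the highest for 8, with no common direction.

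The promoter windows differed in CpG content. Called members had a median of 17 CG dinucleotides in the 250 bases before the start (14 windows), the same as the 17 over all called array genes. Uncalled members had 11 (24 windows), beside 6 over all uncalled genes. The 20 uncalled lineage factors had a median of 8, and ran from 2 for Mesp1 and Neurod4 to 29 for Neurog1. Id2, Id3 and Tcf3 had 18 each, Id4 had 35 and Tcf12 had 38. High CpG counts occurred on both sides of the call, as in Npas2 with 34 and Bhlhe41 and Arnt2 with 31 each, none of them called.

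An E-box, CANNTG, was found in 21 of 38 windows (55.3%), beside 60.7% of the windows of all named array genes and 66.1% of all windows in the table. The windows of Id3 and Id4 shown above hold none. The form CACGTG, 1 case of CANNTG bound by leucine zipper members and by the Clock dimer, was in 3 of 38 windows, those of Ascl3, Hif1a and Bhlhe41 (7.89%, beside 7.6% of array genes). The form CAGCTG was in 5 (13.2%, beside 12.5%), those of Id2, Tcf12, Neurog3, Arnt and Hif1a, and all 5 genes were above background, a count noticed after the values were seen. Over all array genes the form was in 10.8% of called and 14.5% of uncalled windows. These matches describe letters in a window and do not show binding.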

How the data were processed

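Total RNA from 3 samples of F9 cells was measured, 1 array each, with 45101 probe sets per array. The deposited values are linear signal intensities that the authors made with GCOS 1.4, per the submitters' processing notes. The summary algorithm, the detection calls and the scaling target were not given in the sources used here. Equal trimmed means show that each array had been scaled. No further normalization was applied.

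The platform annotation of the probe sets named the genes. The RefSeq gene table (GRCm38.p6) held all 49 gene identifiers and changed 0 symbols, and 0 probe sets with several symbols named a member. The 64 control probe sets were left out of the fit. The margin of each probe set was fitted with limma 3.58.1 in R 4.3.3 (an intercept, eBayes, one-sided), and the code was tested on simulated data. The number of arrays limits the precision. Members, roles and context lists were chosen with earlier results of these data known. All members are named. Of each context list the first 4 measured genes and up to 3 whose call differed from most are named. Of the embryonal carcinoma markers Pou5f1 and Sox2 are named. Of the other cell type markers, those over the threshold on all 3 arrays are named, a choice made by their values. Smad1, Smad5, Smad7 and Nr1d2 were named besides, after their values were seen. Vhl and the remaining genes are counted only. Sequences are from RefSeq, with the most upstream window of each gene, of which the bases before the start were used. For Tcf3 and Tcf12 that start is not the outer end of the gene model. Alternatives are given in the closing section.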

Additional observations from a re-analysis of the deposited data

How the results depend on the processing

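Over 13 alternatives and 49 genes, 605 of 626 results kept their side of the adjusted p threshold. The counts of called genes in each role stayed within 1.5 times with the threshold at the 90th or 99th percentile, with olfactory receptors alone, with quantile normalization, with an offset of 16, with probe sets under a mean signal of 20 left out, with any 1 replicate left out, with the probe set chosen by suffix, without the _s_at and _x_at probe sets, and with a prior variance that follows the mean. The last was chosen after the data were seen, because low signals varied more on the log2 scale. Most counts moved where all probe sets of a gene had to pass, a rule that takes the weakest probe set. They were then 8 genes in all, 2 Id genes, 0 E proteins, 1 lineage factor, 3 leucine zipper genes and 1 PAS gene. The Bhlhe count stayed at 1 gene under this rule. The share of all named genes fell there too, from 51.1% to 31.3%. The weakest probe sets lay at -0.83 for Id2, -0.67 for Tcf4, -1.43 for Tcf12, -0.072 for Mitf, -1.11 for Usf1, -2.82 for Arnt, -0.56 for Hif1a and -0.46 for Arntl on the log2 scale. Those of Id4 (0.80), Tcf3 (0.37), Neurog3 (0.12) and Clock (0.11) were positive but did not pass. When the suffix chose the probe set, Id2 (-0.83), Tcf12 (-0.43) and Arntl (-0.46) lost their calls, since other probe sets stood for them. Apart from these, 17 of 20 called genes kept their calls under each of the 12 alternatives other than the all-probe-set rule. Of 29 uncalled genes, Mesp1, Arnt2 and Sim1 gained a call, at the 90th percentile and without dim probe sets. No paired analysis was possible because all arrays belong to 1 group. Signals within the spread of the background families cannot be told from background here, and a gene not called is not shown to be absent.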
